A study of Danio rerio with 2 samples.

Results

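The vitellogenin genes of zebrafish (Danio rerio), vtg1 to vtg7, are described here in 2 liver libraries. All 7 were found by their Ensembl identifiers among the 25939 genes of the deposited table. The deposited symbol column gives vtg1, in capital or small letters, for all 7 of them, so single genes can be told apart only by identifier. Both libraries came from fish fed a high-fat diet, and they differ in genotype. One was made from wild-type livers, the other from livers of an ambp knockout; ambp encodes the precursor of alpha-1-microglobulin and bikunin. The sex, age, strain and number of fish, the knockout allele, and whether livers were pooled are not given in the labels. Each genotype has 1 library, so no difference has a replicate check, no test was possible, and the 95% intervals cover counting error only.

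Vitellogenins are large lipid-carrying precursors of egg yolk. In fish the liver makes them in response to estrogen acting on its nuclear receptors, and the blood carries them to the growing oocytes, which take them up. In the liver of a mature, egg-producing female they are among the most abundant transcripts, whereas males carry the genes but express them at low levels unless exposed to estrogen; vitellogenin in male fish is for that reason a standard sign of estrogenic pollution. The family holds a type I group (vtg1, vtg4, vtg5, vtg6 and vtg7), a type II group (vtg2, with vtg8), and vtg3, which lacks the phosvitin domain, the serine-rich stretch that binds phosphate and calcium. In the RefSeq gene table of GRCz12tu, used for names and neighbours only, vtg4, vtg6, vtg7, vtg2 and vtg8 followed each other in that order as neighbouring protein-coding genes. vtg5 lay on the same chromosome, and vtg3 lay on another chromosome between ifi30b and adgrl4. Of the 7 members 6 were found in that table, and vtg1 was not.

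The libraries held 15659846 wild-type and 18357830 knockout reads after estimated counts were rounded. Hepatocyte markers were high in both: the 13 measured genes of that list took 19.96% of wild-type and 20.5% of knockout reads. Expression of ambp was 3506 CPM (reads scaled to a common library size by TMM) from 50280 wild-type reads and 154 CPM from 3085 knockout reads, in the direction of the genotype labels.

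Vitellogenin transcripts were scarce in both libraries and nearly all came from vtg5. The 7 genes together had 1090 wild-type reads (1026 to 1157) and 1245 knockout reads (1177 to 1316). These were 0.00696% of wild-type reads (exact binomial interval 0.00655 to 0.00739%) and 0.00678% of knockout reads (0.00641 to 0.00717%). The least counted of the 20 most counted genes had 128651 wild-type and 144523 knockout reads, 118 and 116 times the reads of the whole vitellogenin family. Of the family's reads, vtg5 took 99.1% (98.3 to 99.6%) in wild type and 89.2% (87.3 to 90.8%) in the knockout. The remaining 6 genes had 10 reads (4.80 to 18.4) against 135 reads (113 to 160).

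The type I gene vtg5 (ENSDARG00000092126) was the member with a substantial level in both livers. The wild-type library held 1080 of its reads (1017 to 1146) and the knockout library 1110 (1046 to 1177), or 75.3 CPM (70.9 to 79.9) and 55.4 CPM (52.2 to 58.7). Its level was thus lower in the knockout library, at 0.735 of wild type (0.676 to 0.800), and the counting intervals of the levels did not overlap. The share of all genes whose intervals did not overlap was not computed. By reads it ranked 955 among all genes in wild type and 1091 in the knockout. The log2 ratio of knockout over wild type, with 1 CPM added to each level, was -0.44 and inside the 2-fold rule used here. This log2 ratio ranked 8937 from the highest among the 11634 genes that reached 1 CPM in a library. With library totals in place of TMM it was -0.19. The median of genes with at least 1 CPM then stood at 0.22, and the log2 ratio of vtg5 was -0.41 relative to that median.

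The type I gene vtg4 (ENSDARG00000078429) showed the largest log2 ratio of the 7. Its reads numbered 3 (0.619 to 8.77) in the wild-type library and 72 (56.3 to 90.7) in the knockout library, from a deposited estimate of 71.9. In levels this was 0.209 CPM (0.0431 to 0.611) against 3.59 CPM (2.81 to 4.52), a ratio of 17.2 whose counting interval runs from 5.65 to 85.2. The log2 ratio with 1 CPM added was 1.93, rank 65 from the highest among the 11634 genes that reached 1 CPM in a library. vtg4 passed this filter through the knockout alone, so its rank had to fall on the higher side.

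Its type I relative vtg7 (ENSDARG00000092419) had no wild-type read (0, interval to 3.69) and 26 knockout reads (17.0 to 38.1). With 3 reads taken as the floor in the wild-type library, its knockout level was 6.20-fold that floor, while its counting interval reaches down to 4.69-fold. Its log2 ratio was 1.20, rank 367, and vtg7 too passed the filter of that ranking through the knockout alone. For vtg4 and vtg7 the wild-type reads stayed in single digits or at 0, so the size of each ratio is loosely fixed. On the deposited FPKM with 1 FPKM added, their log2 ratios were 0.88 and 0.42 and neither passed the rule. The FPKM values themselves, 0.05 and 0.93 for vtg4 and 0 and 0.34 for vtg7, all lay under the added 1 FPKM, which understates such changes. With 5 CPM added to the CPM levels, the log2 ratios were 0.72 and 0.33.

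Another type I gene with no wild-type read was vtg1 (ENSDARG00000092233), at 0 reads (0 to 3.69) against 11 (5.49 to 19.7). That is 2.62-fold the same floor, with an interval down to 1.80-fold and a log2 ratio of 0.63. The last of the type I group, vtg6 (ENSDARG00000016825), had 0 reads (0 to 3.69) against 2 (0.242 to 7.22). Both vtg6 values lie at or under the floor, and a difference was not detectable at this depth.

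The phosvitin-less vtg3 (ENSDARG00000016448) had 3 wild-type reads (0.619 to 8.77) and 18 knockout reads (10.7 to 28.4), a ratio of 4.29 (1.25 to 22.8) and a log2 ratio of 0.65. The type II gene vtg2 (ENSDARG00000055809) had 4 reads (1.09 to 10.2) and 6 reads (2.20 to 13.1), a ratio of 1.07 (0.255 to 5.17). The interval of vtg2 spans equality widely, so no difference between the libraries was detectable for it. The other type II gene, vtg8 (ENSDARG00000092028), which is not among the 7, had 1 read (0.0253 to 5.57) and 0 reads (0 to 3.69).

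**Figure D1:**
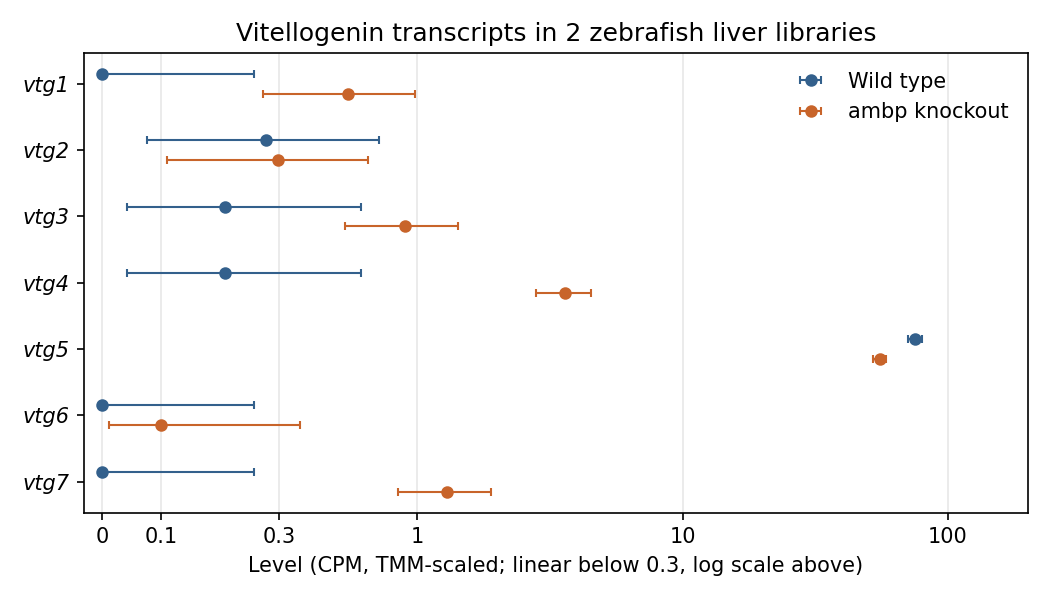
Levels of the 7 vitellogenin genes (CPM on TMM-scaled library sizes; the axis is linear below 0.3 and logarithmic above) in the wild-type library (blue) and the ambp knockout library (orange); points are the single library's value and bars are exact 95% Poisson intervals. vtg5 sits at 75.3 and 55.4 CPM, and no other member exceeds 3.59 CPM.

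Counted over the family, 6 of 7 members had a higher level in the knockout and vtg5 had a lower one. Among the 6 are vtg2 and vtg6, for which no difference was detectable. The share of all genes with a higher level in the knockout was not computed, so this count has no background beside it. By the 2-fold rule on log2(CPM + 1), 2 of 7 members, vtg4 and vtg7, were higher and 0 were lower. The same rule took 5.40% of the 11634 genes with at least 1 CPM as higher and 6.40% as lower. Among the 11378 genes with 1 to 100 reads over both libraries, the class that holds the 6 members other than vtg5, it took 2.06% as higher and 1.55% as lower. Passing the rule takes at least 1 CPM in a library. Genes of this class with fewer reads could not pass it, which lowers both shares. Of the 7 members, 3 reached 1 CPM in a library (vtg4, vtg5 and vtg7), and vtg4 and vtg7 did so through the knockout alone, so among the genes that passed this filter those 2 had to be higher in the knockout. The median log2 ratio over the 7 was 0.63, against -0.0026 over the genes with at least 1 CPM. Without vtg5 the median was 0.64, against 0.070 over the genes with 1 to 100 reads. Neither reference is a close match: only 3 of the 7 members belong to the first class. In the second, the added 1 CPM holds genes with few reads near 0.

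The direction of the family depended on whether vtg5 was counted. Summed over all 7, the level was 76.0 CPM (71.6 to 80.6) for wild type against 62.1 CPM (58.7 to 65.7) for the knockout, a ratio of 0.817 (0.753 to 0.887). Summed without vtg5, it was 0.697 CPM (0.334 to 1.28) against 6.74 CPM (5.65 to 7.97), a ratio of 9.66 (5.09 to 20.6). The member left out was picked by its reads in these data. Of the 135 knockout reads in this sum, vtg4 held 72 and vtg7 26, and no difference was detectable for vtg2 and vtg6. Fewer expressing hepatocytes and less RNA per hepatocyte cannot be told apart in such bulk samples, nor can 1 fish that differs from the rest of a pool.

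Copies of the family can share reads. In the knockout column 3 of the 7 members with reads had counts that were not whole (vtg1, vtg4 and vtg5), against 8.61% of all genes with a count above 0 there. In wild type 0 of the 4 members with reads had one, against 8.14% of genes. The labels do not say how such fractions arose, and whether some of the vtg4, vtg7 or vtg1 reads came from vtg5 transcripts was not tested.

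Per length, on the deposited FPKM scale, vtg5 had 16.38 (wild type) and 14.36 (knockout), above the median of 2.23 and 2.57 for genes with at least 1 CPM. The next member was far lower: no other vitellogenin exceeded 0.05 FPKM in wild type or 0.93 FPKM in the knockout, the latter being vtg4. In the knockout the order of FPKM was vtg5, vtg4, vtg7 (0.34), vtg3 (0.23), vtg1 (0.14), vtg2 (0.07) and vtg6 (0.03). The read intervals of vtg5, vtg4 and vtg7 did not overlap. Those of each pair of neighbours from vtg7 to vtg6 did, so the order of such neighbours is not fixed by the counts. Further apart, the interval of vtg7 lay above those of vtg2 and vtg6, and that of vtg3 above that of vtg6. In wild type vtg2, vtg3 and vtg4 were all listed at 0.05 FPKM, and vtg1, vtg6 and vtg7 were listed at 0.

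Vitellogenins belong to the large lipid transfer proteins, with apolipoprotein B, the core of very-low-density and low-density lipoproteins, and the microsomal triglyceride transfer protein that loads lipid onto it. The liver genes of these relatives were abundant where vitellogenins were not. The apolipoprotein B gene apobb.1 had 939 FPKM in the wild-type and 1424 FPKM in the knockout library, which is 57.3 and 99.2 times the vtg5 value. Its paralog apobb.2 had 83.7 and 123.6 FPKM, and mttp had 84.6 and 87.2 FPKM, the latter 5.17 and 6.08 times vtg5. None of these 3 relatives passed the 2-fold rule, with log2 ratios of 0.35 for apobb.1, 0.31 for apobb.2 and -0.11 for mttp. With library totals that of mttp was 0.14, which is -0.078 relative to the median of genes with at least 1 CPM. It stayed below that median in the other scalings, and with FPKM below the median of genes with at least 1 FPKM. The most abundant hepatocyte marker, apoa2, stood at 4954 times vtg5 in wild type and 5088 times in the knockout on the FPKM scale.

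**Figure D2:**
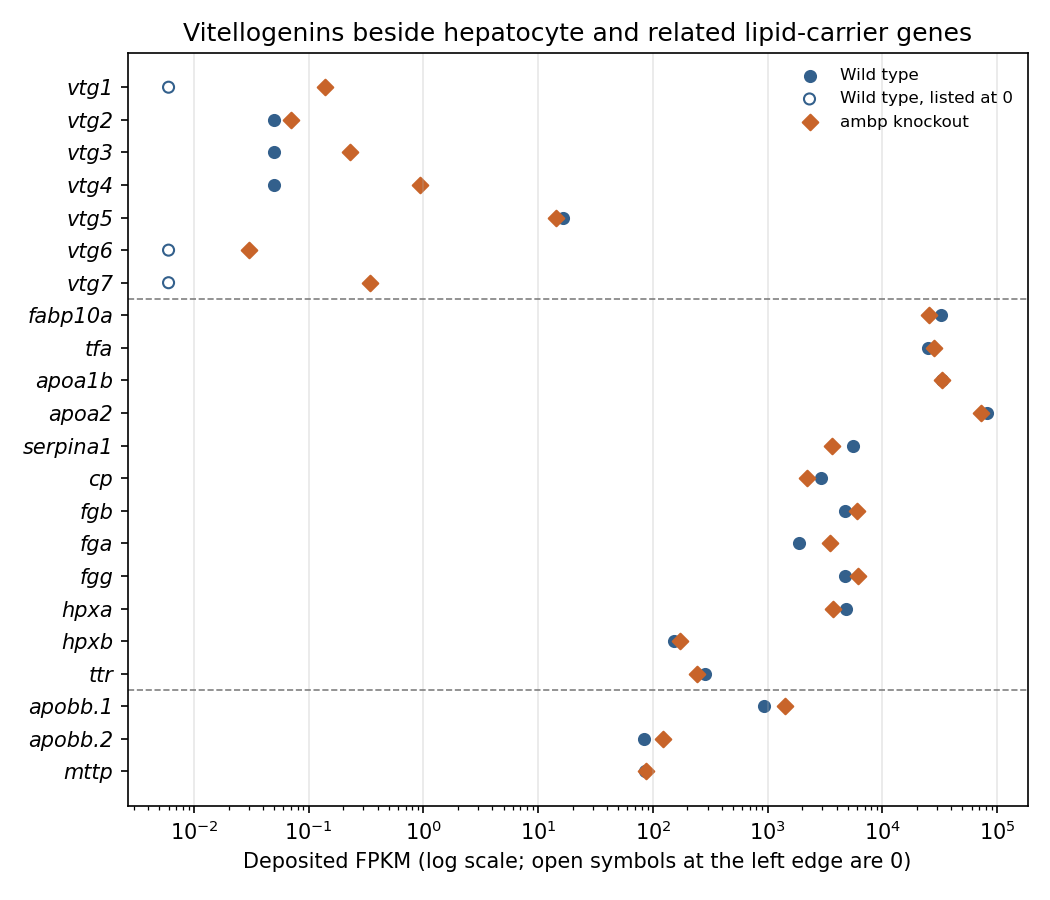
Deposited FPKM (log axis) of the 7 vitellogenin genes (top), 12 hepatocyte markers (middle) and 3 genes of the same protein superfamily (bottom) in the wild-type (circles) and knockout (diamonds) libraries; open symbols at the left edge are values listed at 0. vtg5 reaches 16.38 and 14.36 FPKM, under every hepatocyte marker and superfamily gene shown.

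Genes of the estrogen pathway that acts on vitellogenins were mostly low. Of the 6 sex steroid receptor genes 1 was past 2-fold higher and 0 lower, where 5.40% of all genes with at least 1 CPM were higher and 6.40% lower. Only 4 of the 6 reached 1 CPM in a library. The receptor gene esr1, whose product drives vitellogenin transcription in fish liver, had 25 wild-type and 12 knockout reads, a ratio of 0.343 (0.157 to 0.709). The estrogen receptor gene with most reads, esr2b, had 707 and 590 reads (ratio 0.597, 0.534 to 0.667), and esr2a had 34 and 69 (ratio 1.45, 0.95 to 2.26). The androgen receptor gene ar had 19 wild-type and 101 knockout reads, a ratio of 3.80 (2.31 to 6.58) and a log2 ratio of 1.38. The progesterone receptor gene pgr had 2 and 1 reads, and the membrane estrogen receptor gene gper1 had 0 in both.

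Of 8 measured genes of the list of estrogen-induced genes and sex steroid handling, 1 was past 2-fold higher and 1 lower, beside the same 5.40% and 6.40% of all genes with at least 1 CPM. Only 3 of the 8 reached 1 CPM in a library. The estrogen-responsive coregulator gene greb1 had 7 and 45 reads, a ratio of 4.60 (2.06 to 12.1) and a log2 ratio of 1.12. It reached 1 CPM through the knockout alone, so among the genes that passed this filter it had to be higher there. Of the genes with 1 to 100 reads, the class that holds greb1, 2.06% were higher. Nothepsin, nots, an aspartic protease of female fish liver, had 0 wild-type reads (0 to 3.69) and 8 knockout reads (3.45 to 15.8). Its knockout level was 1.91-fold the wild-type floor, with an interval down to 1.22-fold. The kinase-like gene fam20cl had 0 reads in both. Plasma sex steroid carrier shbg was abundant, with 13933 and 19532 reads and a ratio of 1.003 (0.982 to 1.025); its log2 ratio of 0.0045 was -0.010 with DESeq2 size factors. The steroid dehydrogenase gene hsd17b3, which makes testosterone in the testis, had 2290 and 734 reads, a ratio of 0.229 (0.211 to 0.249). The other steroid enzymes of the list, hsd17b1, hsd17b2 and srd5a1, had 3 reads or fewer in each library. The oocyte receptors for yolk precursors, vldlr with 2 and 5 reads and lrp13 with 3 and 0, were at or near the floor in both livers.

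Markers of ovary were almost absent. Of the 27 measured ovary and oocyte genes 13 had 0 reads in both libraries, among them the oocyte genes gdf9, figla and zar1 and the ovarian aromatase gene cyp19a1a, and bmp15 had 1 read in each. The 18 egg envelope (zp) genes had 16 wild-type reads (9.15 to 26.0) and 21 knockout reads (13.0 to 32.1) together. Of these zp3a.2 had 10 and 0 reads, zp3d.2 had 2 and 9, and zp2.3 had 0 and 4. The whole ovary list summed to 9.83 CPM (8.28 to 11.6) against 3.09 CPM (2.37 to 3.97), higher in wild type. Most of the wild-type sum came from ddx4 and piwil1, which germ cells of both sexes express, with 42 and 10 reads and with 60 and 18 reads. These 2 of 27 genes were past 2-fold lower and 0 higher. Among all genes 6.40% of those with at least 1 CPM were lower, and 1.55% of those with 1 to 100 reads. Only 3 of the 27 reached 1 CPM in a library. Both ddx4 and piwil1 did so through wild type alone, so among the genes that passed this filter they had to be lower in the knockout.

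Markers of testis other than hsd17b3 were low, and part of the list was higher in wild type. The 8 genes of that list summed to 169 CPM (163 to 176) for wild type and 40.7 CPM (37.9 to 43.6) for the knockout, but hsd17b3 made up most of it. In wild type hsd17b3 held 160 CPM and insl3, the next by reads, 3.42 CPM. Which cells the hsd17b3 reads came from was not tested. The other 7 genes, a subset formed after the values were seen, summed to 9.69 CPM (8.15 to 11.4) against 4.04 CPM (3.21 to 5.02). Past the 2-fold rule were 3 of the 8 genes, all lower in the knockout, beside 6.40% of genes with at least 1 CPM and 1.55% of those with 1 to 100 reads. Beside hsd17b3 these were the Leydig cell hormone gene insl3, with 49 and 6 reads (ratio 0.0876, 0.0307 to 0.205), and the testis transcription factor gene dmrt1, with 32 and 9 reads (ratio 0.201, 0.0845 to 0.431). Of the 8 genes 5 reached 1 CPM in a library. Both insl3 and dmrt1 did so through wild type alone, so among the genes that passed this filter they had to be lower in the knockout. The remaining members did not pass the 2-fold rule: gsdf had 8 and 4 reads, sycp3 17 and 20, and tekt1 32 and 35. The steroid enzyme gene cyp11c1 lay the other way, with 0 wild-type and 6 knockout reads. Its knockout level was 1.43-fold the wild-type floor, though its counting interval reaches down to 0.843. Expression of amh, made by gonadal support cells, was 1 read in each library. On the deposited FPKM with 1 FPKM added, insl3 (-1.69) and hsd17b3 (-1.82) still passed the rule, whereas ddx4 (-0.69), piwil1 (-0.75), dmrt1 (-0.51), ar (0.98) and greb1 (0.37) kept their direction without passing it. Of these, ddx4, dmrt1 and greb1 lay under 1 FPKM in both libraries, so the added 1 FPKM understates their change. The part of gonadal RNA in the vitellogenin values was not tested.

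**Figure D3:**
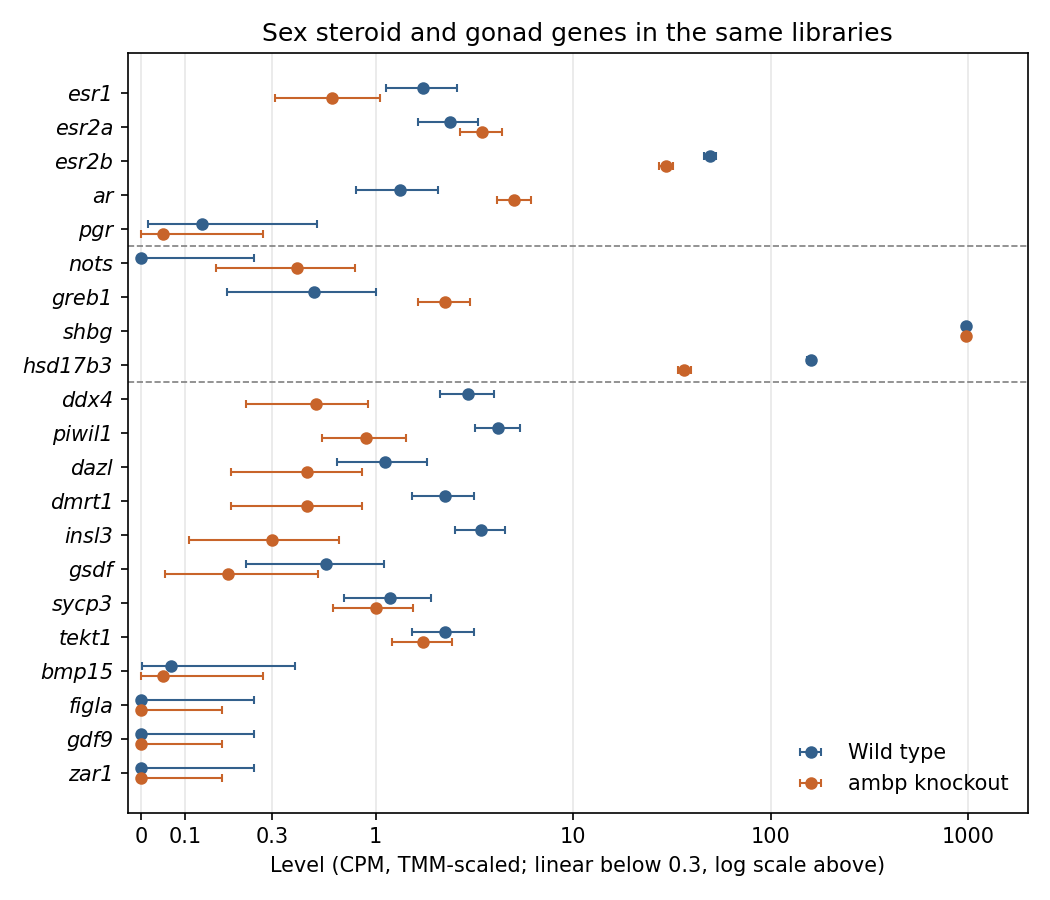
Levels (CPM on TMM-scaled sizes; linear below 0.3 and logarithmic above) of sex steroid receptor genes (top), estrogen-responsive and steroid-handling genes (middle) and gonad and germ cell genes (bottom) in the wild-type (blue) and knockout (orange) libraries, with exact 95% Poisson intervals. ar and greb1 lie higher in the knockout, hsd17b3, ddx4, piwil1, dmrt1 and insl3 lie higher in wild type, and figla, gdf9 and zar1 have 0 reads in both.

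As a readout of sex, the levels were those of livers without abundant yolk-precursor transcripts. In both libraries the whole family stayed at or under 0.00696% of reads, and each of the 20 most counted genes had at least 116 times its reads, which is not the state described above for livers of egg-producing females. The data hold no liver of known sex. Males, females that were not producing yolk, and a pool with a small share of female RNA cannot be told apart from these values, in either genotype. The knockout library had reads for all 7 members, vtg6 through 2 reads, and for nots, and wild type for 4 members and not for nots. Over all 25939 genes, 17347 had a wild-type read and 18080 a read in the deeper knockout library. Other listed genes went both ways. Past the 2-fold rule on CPM, ar and greb1 lay higher in the knockout. Lower were hsd17b3, insl3 and dmrt1, and the germ cell genes ddx4 and piwil1. The estrogen receptor genes esr1 (log2 ratio -0.78) and esr2b (-0.72) lay lower and esr2a (0.40) higher, all inside the rule. Whether the fish of the libraries differed in sex or in estrogen exposure was not tested, and the genotype and the sex of the fish cannot be told apart with 1 library each.

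With 2 libraries no pattern across samples can be compared, so likeness to vtg5 was measured as distance in log2(CPM + 1) over both. The nearest genes were aqp11, an aquaporin, with 73.4 and 56.2 CPM (distance 0.042), pon3.1, of the paraoxonase family, with 78.2 and 55.4 CPM (distance 0.053), and agl, the glycogen debranching enzyme, with 73.1 and 53.9 CPM (distance 0.057).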

How the data were processed

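Per the labels' protocols, total RNA of liver was extracted with TRIzol, mRNA was enriched on oligo(dT) beads, and cDNA was prepared by the NEBNext Ultra kit. The submitters' processing notes name HISAT2, featureCounts and GRCz11, with neither version nor role. The table deposited by the authors gives an estimated count and an FPKM value per gene and library, per the file headers; the treatment of gene lengths and shared reads is not stated there. Of the sample columns 4 were used and 0 were unmatched.

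Estimated counts were rounded and scaled with TMM (edgeR 4.0.16, R 4.3.3; factors 0.916 and 1.09). A single read was worth 0.0697 CPM (wild type) or 0.0499 CPM (knockout). Levels have exact Poisson and ratios exact conditional Clopper-Pearson intervals, at 95%; PCR reads are not independent molecules, so they cover counting error only. Log2 ratios carry a pseudocount of 1 CPM, which understates the change of low genes. Where a library had 0 reads, the fold is taken against a floor of 3 reads there. Such a fold leaves out counting error and is not a lower bound. The fold rule is 2-fold. The code was tested on simulated data, with genes at higher levels than every vitellogenin but vtg5, so that test does not cover levels as low as theirs. Alternatives were DESeq2 1.42.0 size factors, other scalings, pseudocounts, filters, folds and FPKM.

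Names came from an Ensembl table (23499 of 25939 genes), then from the deposited symbol. Of the listed genes foxl2a, cyp19a1b, srd5a2a and apoba were not matched and are not analysed here. Named were all vitellogenins, all members of the short lists, up to 3 leading examples and others chosen after their values were seen from the marker lists, and the 3 genes nearest to vtg5. The members and lists were chosen with earlier results of these data known.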

Additional observations from a re-analysis of the deposited data

How the results depend on the processing

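In none of the alternatives did a single member's log2 ratio change sign as computed. The median over genes with at least 1 CPM, or 1 FPKM on that scale, was taken as a reference. Relative to it, vtg2 and vtg6 lay at -0.14 and -0.069 with library totals. They lay at -0.11 and -0.038 without the 20 most counted genes, and at -0.16 and -0.14 with FPKM. Both genes hold under 1 CPM, where the pseudocount pulls a ratio toward 0, so these values do not show a lower level in the knockout. As computed, the log2 ratio of vtg5 ranged from -0.45 to -0.18 over 9 settings and that of vtg4 from 0.72 to 4.10. Over 8 settings, that of vtg7 ranged from 0.33 to 3.80. The log2 ratio of the summed level was -0.29. It was -0.037 with library totals, -0.077 with totals without the 20 most counted genes and -0.036 with the deposited FPKM. The reference median was 0.22, 0.19 and 0.19 in these settings, and relative to it the summed level was at -0.26, -0.26 and -0.22. Summed without vtg5 it was reversed, at 2.19. The count of members past 2-fold, 2, was 0 with FPKM, 4 with a pseudocount of 0.1 CPM, 0 with 5 CPM, 4 at a 1.5-fold threshold and 0 at 4-fold. Thresholds and pseudocounts count other genes by construction, since most members hold under 1 CPM. The FPKM setting also carries a pseudocount, of 1 FPKM, which is above the FPKM of every member but vtg5. Library totals, with or without the 20 most counted genes, changed only the library sizes that the same reads were divided by. Why these sizes differ from those of TMM was not tested. DESeq2 size factors and unrounded counts gave 2 members as well. The filters of 1 CPM and of 10 reads in either library also left 2, but they could not have changed the count. Passing the rule with 1 CPM added already takes at least 1 CPM in a library, which is more than 10 reads. No paired analysis was possible because each genotype has 1 library. Depth limits vtg2 and vtg6, at 6 reads or fewer in each library.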
